A study of Mus musculus with 4 samples.

Results

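The 9 genes described here are lipase, colipase and amylase genes, named for the proteins with which fat and starch are digested. They were followed in RNA of isolated pancreatic islets. Among them Amy2b is annotated as an unprocessed pseudogene, and Amy1 is the salivary amylase gene. They were taken by gene name from a table of 54532 genes: the lipase and colipase genes Pnlip, Pnliprp1, Pnliprp2, Cel, Clps and Pla2g1b, and the amylase genes Amy1, Amy2a5 and Amy2b. Levels are in FPKM, that is, fragments divided by gene length and scaled for each library. Comparisons covered the 12716 genes that reached 1 FPKM in 2 or more libraries. These included 8 of the 9 genes, and Amy1 stayed below 1 FPKM in every library. The islets came from male C57BL/6 mice of 10 to 12 weeks, and 4 libraries were sequenced. Of these, 2 were from mice with a miR-29a/b-1 transgene, which overexpresses these microRNAs in pancreatic beta cells, and 2 were from wild-type mice. The labels name no promoter for the transgene and do not state if single or pooled mice gave a library. Any p-value here measures the spread among these 4 libraries alone, and that spread may be technical.

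Acinar cells, which surround the islets, make these enzymes and store them in zymogen granules until a meal. Triglyceride is split by pancreatic lipase, which needs its cofactor colipase in the presence of bile salts. Carboxyl ester lipase acts on cholesterol and other esters, phospholipase A2 on phospholipids, and amylase on starch. Islet endocrine cells are not known for making them. In bulk RNA, fewer acinar cells and less of this RNA per cell cannot be told apart.

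The libraries held between 21670854 and 27080907 reads in genes, recovered from the deposited FPKM. Libraries carry the number 1 or 2 in both genotypes. Islet hormone genes held 43.5% and 58.2% of all FPKM in transgenic 1 and 2, and 52.4% and 59.7% in wild type 1 and 2. All 8 listed hormone genes were detected in every library, with Ins2 highest. The 16 listed secreted protease genes of acinar cells, whose part in the results below was not tested, summed to 6251 and 1700.3 FPKM in transgenic 1 and 2, against 4814 and 1027 FPKM in wild type 1 and 2. Of these, 14 were compared, and the other two, Prss1 and Cela3a, had at most 8 reads in a library. Duct markers summed to between 65.2 and 85.5 FPKM, and fat cell markers to between 3.96 and 5.74 FPKM, with Plin1, Lep and Retn at 0 in all libraries.

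The lipase genes Pnlip, Pnliprp1 and Pnliprp2 lie in a row on the plus strand of chromosome 19 (58670365 to 58777533, GRCm38), with the pseudogene 1810018F18Rik between Pnlip and Pnliprp1, and the amylase genes on the minus strand of chromosome 3 (113147656 to 113606699), where the table lists 8 genes named Amy1 or Amy2. Cel is on chromosome 2 (28555795 to 28563403), Clps on chromosome 17 (28558149 to 28560766) and Pla2g1b on chromosome 5 (115466262 to 115474722). Promoter windows are shown for Pnlip and Cel, of the lipase genes that kept nearly fixed proportions, and for 3 amylase copies, which did not. The part of promoters or of read sharing in these proportions was not tested. The windows run from 250 bases before to 50 after the gene start and come from RefSeq (GRCm38.p6), where 8 of the 9 genes matched. Capitals mark each E-box, which has the letters CANNTG. They also mark TGGGAA, on whichever strand it lies, and the TATA box letters TATAAA. PTF1, the factor complex known to drive acinar enzyme genes, reads an E-box beside a box of the second kind.
Pnlip, chr19:58670115-58670414, plus strand: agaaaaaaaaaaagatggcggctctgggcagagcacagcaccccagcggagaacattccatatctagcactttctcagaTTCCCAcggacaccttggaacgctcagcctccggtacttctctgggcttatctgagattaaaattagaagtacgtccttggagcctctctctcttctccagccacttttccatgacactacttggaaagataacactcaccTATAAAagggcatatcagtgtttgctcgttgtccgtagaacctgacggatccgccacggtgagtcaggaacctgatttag
Cel, chr2:28563354-28563653, minus strand: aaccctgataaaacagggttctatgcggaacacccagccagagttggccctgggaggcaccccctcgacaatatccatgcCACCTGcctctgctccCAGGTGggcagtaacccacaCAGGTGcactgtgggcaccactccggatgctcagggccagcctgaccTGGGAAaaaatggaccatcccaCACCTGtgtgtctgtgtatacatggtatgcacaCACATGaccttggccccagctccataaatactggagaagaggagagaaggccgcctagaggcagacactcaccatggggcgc
Amy2a5, chr3:113258650-113258949, minus strand: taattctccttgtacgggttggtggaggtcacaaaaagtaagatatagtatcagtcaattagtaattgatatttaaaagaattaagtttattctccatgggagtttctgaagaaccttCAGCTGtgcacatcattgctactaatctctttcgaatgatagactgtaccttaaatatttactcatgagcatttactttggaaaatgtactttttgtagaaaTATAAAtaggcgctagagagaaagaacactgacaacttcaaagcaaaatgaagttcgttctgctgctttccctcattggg
Amy2b, chr3:113156678-113156977, minus strand: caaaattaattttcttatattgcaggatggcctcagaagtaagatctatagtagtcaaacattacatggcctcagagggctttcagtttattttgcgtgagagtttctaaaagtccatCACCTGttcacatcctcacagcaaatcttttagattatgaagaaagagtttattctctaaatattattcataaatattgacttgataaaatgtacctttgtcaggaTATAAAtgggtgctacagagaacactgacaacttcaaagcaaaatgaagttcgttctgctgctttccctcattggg
Amy2a4, chr3:113291400-113291699, minus strand: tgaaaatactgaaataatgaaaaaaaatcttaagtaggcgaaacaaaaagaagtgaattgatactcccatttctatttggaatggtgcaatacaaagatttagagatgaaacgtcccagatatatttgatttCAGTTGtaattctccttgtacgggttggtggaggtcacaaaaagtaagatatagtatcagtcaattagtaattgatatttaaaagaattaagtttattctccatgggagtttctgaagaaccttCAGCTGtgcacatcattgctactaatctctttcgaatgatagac
The windows of Amy2a2 and Amy2a3 were identical to that of Amy2a4 at all 300 positions. Those 3 windows share an unbroken run of 162 bases with the window of Amy2a5, shifted along the sequence. Amy2a5 and Amy2b share their last 58 bases.

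TATAAA began 30 bases before the start in Pnlip and Amy2a5 and 26 bases before it in Amy2b. Searched on both strands, an E-box was found in windows of 6 of the 8 genes, TGGGAA in 4, TATAAA in 4, and an E-box together with TGGGAA in 3 (Pnliprp1, Cel and Amy1, the last with 2 windows). None of these matches overlapped another. Among all 32851 RefSeq windows of this length, 72.3% held an E-box, 25.6% TGGGAA, 13.6% TATAAA and 18.96% both an E-box and TGGGAA. Cel held 5 E-boxes and 1 TGGGAA, and Pla2g1b held none of the motifs. These matches are descriptions of letters and not of binding.

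The transgene carries microRNAs of the miR-29 family, which pair with messenger RNAs through bases 2 to 8, the seed, in capitals here. The sequences are from RefSeq.
mmu-miR-29a-3p: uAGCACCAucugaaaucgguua
mmu-miR-29b-3p: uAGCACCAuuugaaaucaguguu
Both carry the same seed. In the GENCODE annotation, 3' UTRs were given for 8 of the 9 genes, of 31 to 2033 bases, and none of them held TGGTGCT, the 7 bases that pair with the seed. Amy2b, an unprocessed pseudogene in the table, has no 3' UTR there. Only TGGTGCT was searched for, so matches to fewer or other bases of these microRNAs are not covered.

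Pancreatic lipase was the most abundant of the 9 transcripts. Pnlip lay at 806 and 193 FPKM in transgenic 1 and 2, against 560 and 113 FPKM in wild type 1 and 2. By FPKM it ranked 29th and 107th of all genes in the transgenic libraries, and 35th and 213th in the wild-type ones. Both libraries numbered 1 were several-fold above both numbered 2, and the genotypes overlapped.

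**Figure D1:**
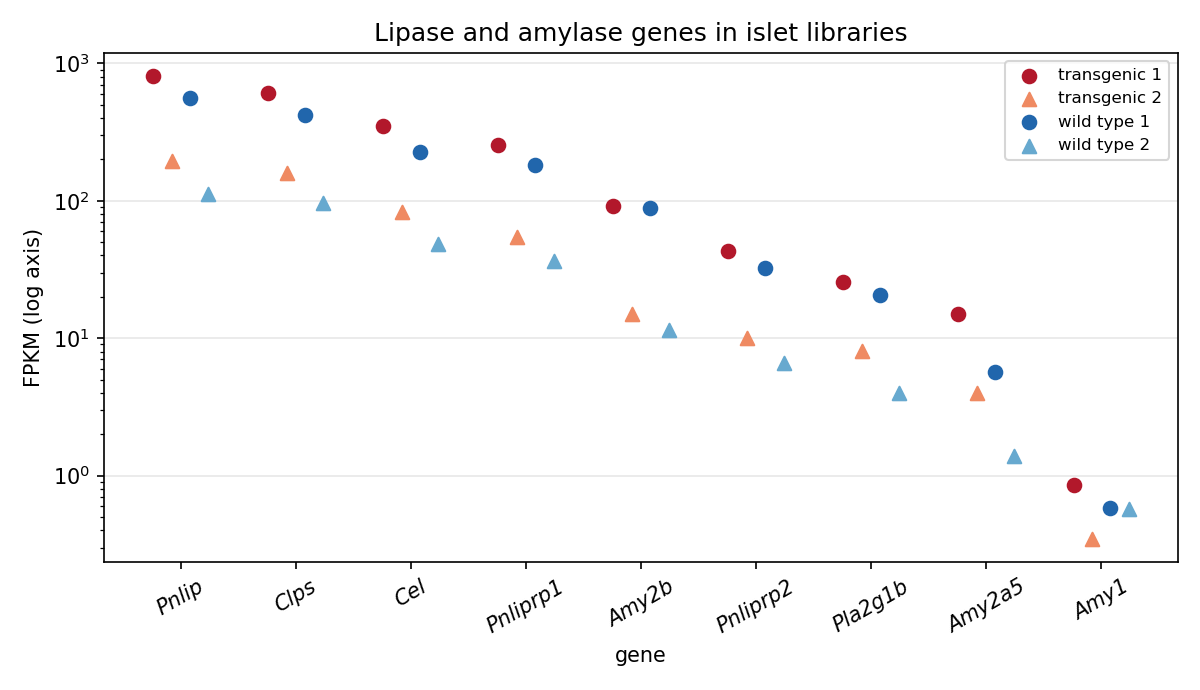
FPKM of the 9 genes (log axis) in each of the 4 libraries, with circles for number 1 and triangles for number 2, transgenic in red and wild type in blue. Pnlip spans 113 to 806 FPKM, and for every gene both circles lie above both triangles.

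Clps, the colipase gene, followed at 603 and 160 FPKM in transgenic 1 and 2, against 421 and 96.0 FPKM in wild type 1 and 2. Cel, the gene of the bile-salt-dependent carboxyl ester lipase, lay at 349 and 82.9 FPKM in the transgenic libraries, against 226 and 48.4 FPKM in the wild-type ones. The order of libraries in both genes was that of Pnlip: transgenic 1, wild type 1, transgenic 2, wild type 2.

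The lipase-related genes were lower. Pnliprp1, whose product resembles pancreatic lipase but is known for very weak lipase activity, lay at 254 and 54.7 FPKM in transgenic 1 and 2, against 182 and 36.2 FPKM in wild type 1 and 2. Pnliprp2, whose product also acts on galactolipids, lay at 43.2 and 10.1 FPKM in the transgenic libraries, against 32.5 and 6.57 FPKM in the wild-type ones. Pla2g1b, the pancreatic phospholipase A2 that trypsin activates, lay at 25.6 and 8.01 FPKM in transgenic 1 and 2, against 20.6 and 4.003 FPKM in wild type 1 and 2. All kept the same order of libraries, and Pla2g1b rests on 471 and 120 reads in the transgenic libraries and 350 and 74 in the wild-type ones. The longest transcripts of Pnlip, Pnliprp1 and Pnliprp2 are 65.3% to 68.6% identical in pairs, and none of their 50-base stretches occurs in a transcript of another gene. The same held for Cel, Clps and Pla2g1b, so their reads are not shared in this sense. Cel overlaps the antisense gene Gm13381, which had 10 and 1 reads in transgenic 1 and 2 and 9 and 8 in wild type 1 and 2.

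Among Amy1, Amy2a5 and Amy2b, the annotated pseudogene Amy2b was highest per length, at 91.5 and 15.1 FPKM in transgenic 1 and 2, against 88.7 and 11.4 FPKM in wild type 1 and 2. Amy2a5, a pancreatic amylase gene, lay at 15.0 and 3.99 FPKM in transgenic 1 and 2, against 5.63 and 1.38 FPKM in wild type 1 and 2. Amy1, the salivary amylase gene, lay at 0.855 and 0.345 FPKM in transgenic 1 and 2, against 0.584 and 0.571 FPKM in wild type 1 and 2. Amy1 held 76 and 25 reads in the transgenic libraries and 48 and 51 in the wild-type ones, so its counting intervals are wide. It also overlaps Rnpc3 on the same strand, whose reads it may share. In the table Amy2b has 1577 bases and Amy2a5 3973, with a long 3' UTR, so their FPKM are scaled over very different lengths.

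Library number 1 was set against number 2 over all genes to ask how far these genes vary with the number, whose meaning the labels do not give. All 6 lipase and colipase genes were higher in number 1, and so was Amy2b: 7 of the 8 genes compared passed and 0 were lower (limma, adjusted p under 0.05), against 10.6% of all genes compared that were higher and 10.1% that were lower. On the log2(FPKM + 1) scale, Pnlip was higher in number 1 by 2.18 ± 0.29 (standard error, n = 2 per number, limma adjusted p = 0.00995) and Amy2b by 2.69 ± 0.14 (limma adjusted p = 0.00159). The other 5 that passed differed by 1.84 (Pla2g1b) to 2.24 (Pnliprp1), with limma adjusted p of 0.00584 to 0.0135. Amy2a5 was higher by 1.58 ± 0.50 and missed the threshold (limma adjusted p = 0.0764). The median of the 8 was 2.10, against -0.01 over all genes compared. The count was 1 of 9 with no filter on low values, where limma compares 29257 genes, and 3 of 8 without transgenic 1.

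The gap between numbers was also taken within each genotype. Pnlip in number 1 was 4.18-fold that in number 2 in transgenic islets (95% counting interval 4.06 to 4.29) and 4.98-fold in wild-type islets (4.81 to 5.14). Amy2b had the widest gap among the 9, 6.06-fold (5.52 to 6.67) in transgenic islets and 7.75-fold (7.03 to 8.55) in wild-type islets. Amy1 stood apart, with 2.48-fold (1.56 to 4.06) in transgenic islets and 1.02-fold (0.675 to 1.55) in wild-type islets. Each value in number 1 was above each in number 2 for 9 of the 9 genes, against 32.4% of all genes compared. The gap was at least 4-fold in both genotypes for 5 of the 9, against 1.16%. These intervals are exact, from the reads of both libraries, and cover counting error only.

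Other acinar genes moved with them. The 14 secreted protease genes compared were all higher in number 1 (limma adjusted p under 0.05 in 14 of 14, median 2.03). Their most abundant members are the chymotrypsinogen gene Ctrb1, the trypsinogen genes Prss2 and Try4, and the elastase gene Cela2a, higher by 1.87, 2.06, 2.08 and 2.33. Of 11 other acinar genes compared, 8 were higher and 1 was lower (Gatm, of creatine synthesis), with a median of 1.37. The ribonuclease gene Rnase1 and the granule genes Sycn, Zg16 and Gp2 were higher by 1.66 to 2.20. Of 6 other lipase genes compared, Pnpla2, of intracellular triglyceride breakdown, was higher in number 1 (0.49, limma adjusted p = 0.0275), and Lpl, of lipoprotein breakdown, was lower (-0.51, limma adjusted p = 0.0391), with a median of 0.14. Of 5 other phospholipase A2 genes compared, Pla2g15 was lower (-0.62, limma adjusted p = 0.0341) and none was higher. Of 5 other genes of starch and glycogen breakdown compared, 1 was higher, the glycogen phosphorylase gene Pygm (1.20, limma adjusted p = 0.00498). The median was 0.05 for the phospholipases and -0.05 for the genes of starch and glycogen breakdown. Over all genes compared, 10.6% were higher in number 1 and 10.1% lower. Single calls in lists of 5 or 6 genes are near those shares and are no result about these families. Gatm, Pygm and other single genes named for passing were chosen after their values were seen. Some of the lower protease and other acinar genes in these counts, and also Pygm, reached 1 FPKM only in the libraries numbered 1. Such genes passed the filter only through the libraries where they were high, so their calls are no independent result.

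Of 8 islet hormone genes compared, 2 passed as lower in number 1 and none as higher, against 10.1% and 10.6% of all genes compared. The 2 were Ppy and Sst (-1.21 and -0.72, limma adjusted p of 0.00479 and 0.0154). Ins2 did not pass (-0.82, limma adjusted p = 0.0813), and neither did Ins1 (-0.11), Iapp (-0.13) and Gcg (0.04). The median of the 8 hormone genes was -0.12. Their part in the difference was not tested.

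The genes outside the 9 with the profile most like that of Pnlip over the 4 libraries were Zg16, Dnajb1, Ctrl, Klk1 and Gp2. Likeness was the distance between log2(FPKM + 1) profiles centred on their means, and it was 0.03 for Zg16, 0.08 for Dnajb1 and 0.14 for each of the other 3, against a median of 2.29 over all genes compared. Cel lay at 0.09, Pnliprp1 at 0.15, Clps at 0.17, Pnliprp2 at 0.21, Pla2g1b at 0.38, Amy2b at 0.67 and Amy2a5 at 0.83. Zg16 encodes a zymogen granule protein, and Dnajb1, a heat shock cochaperone gene, lay at 441 and 101 FPKM in transgenic 1 and 2, against 291 and 62.0 FPKM in wild type 1 and 2. The genes most like Amy2a5 were Gm25788, C2cd4b, Tff2, C2cd4a and Mir132, at 0.30 to 0.55. Gm25788 and Mir132 held at most 20 and 11 reads in a library.

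Within a library the lipase genes stayed close to fixed proportions. Cel was at 43.3% and 43.0% of the FPKM of Pnlip in transgenic 1 and 2, and at 40.3% and 43.0% in wild type 1 and 2. Clps was at 74.8% and 82.7% of Pnlip in the transgenic libraries, and at 75.2% and 85.3% in the wild-type ones. Pnliprp1 was at 31.5% and 28.3%, against 32.4% and 32.2%, and Pnliprp2 at 5.36% and 5.21%, against 5.80% and 5.84%, in transgenic and wild-type libraries. Pla2g1b varied most, at 3.18% and 4.15% in the transgenic libraries and 3.67% and 3.56% in the wild-type ones. It also had the fewest reads of the lipase genes, 120 in transgenic 2 and 74 in wild type 2, so its counting error is the widest. The share of Clps was higher in number 2 in both genotypes. These ratios moved far less than the levels, which changed several-fold over the same libraries.

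**Figure D2:**
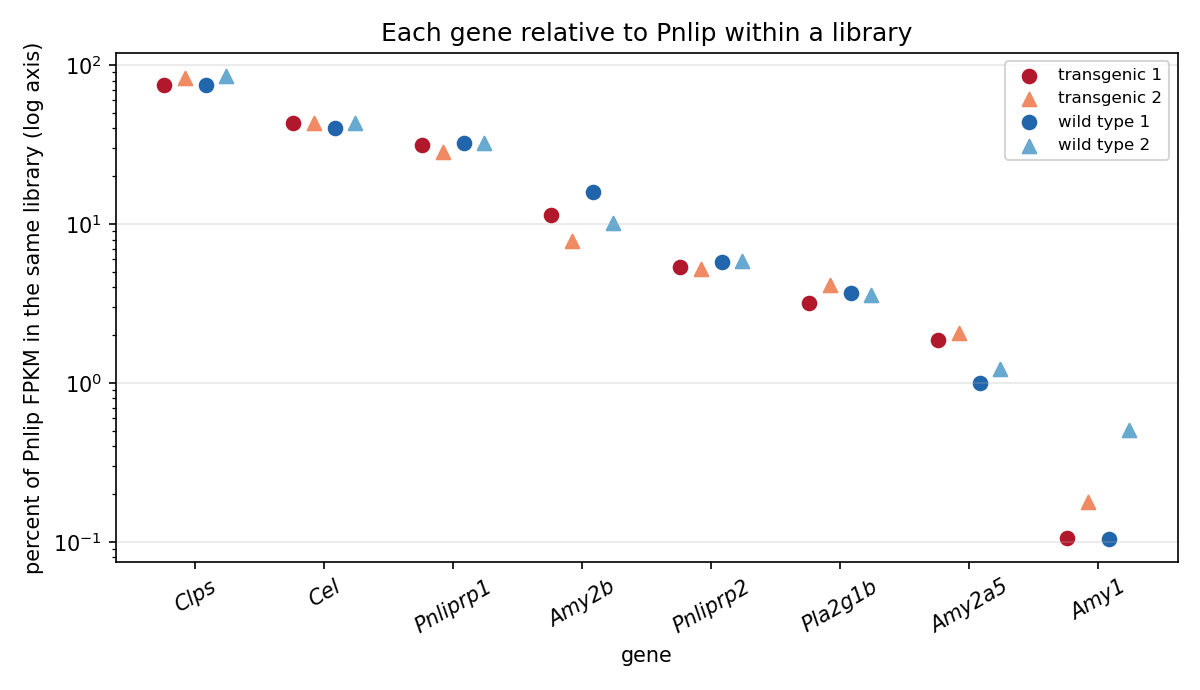
FPKM of each gene as a percent of Pnlip FPKM in the same library (log axis), with circles for number 1 and triangles for number 2, transgenic in red and wild type in blue. Cel lies between 40.3% and 43.3% in all libraries, while Amy2a5 is at 1.86% and 2.07% in transgenic and 1.005% and 1.22% in wild-type libraries.

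The amylase genes kept less even proportions. Amy2b was at 11.3% and 7.82% of Pnlip in transgenic 1 and 2, and at 15.8% and 10.2% in wild type 1 and 2. Amy2a5 was at 1.86% and 2.07% in the transgenic libraries, and at 1.005% and 1.22% in the wild-type ones. Ratios to Pnlip did not overlap between genotypes for Amy2a5, which was above wild type in transgenic islets, nor for Pnliprp1 and Pnliprp2, which were below. Of all genes compared, 0.0708% were above with no overlap and 2% below. Pnlip itself changed several-fold with library number, so most genes that did not change with it could hardly avoid overlap. These shares are low for that reason and do not show the non-overlap to be unusual among acinar genes. For Amy2b, Cel, Clps, Pla2g1b and Amy1 the genotypes overlapped.

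Transgenic islets were compared with wild-type islets to ask whether the miR-29a/b-1 transgene of the beta cells goes with a change in these transcripts. Each of the 8 genes compared had a higher mean in transgenic islets, but the gap between library numbers was wider than that between genotypes, and the genotypes overlapped for each of the 9 (12.2% of all genes compared were above wild type with no overlap). None of the 8 passed the test, and 0% of all genes compared did (limma, adjusted p of 1.00 for each of the 8). At an unadjusted p under 0.05, limma gave 0 of the 8 and 83 of all genes, 42 of them higher (0.33%). With voom on the recovered reads 0 genes passed and 31 had an unadjusted p under 0.05. The log2(FPKM + 1) difference was 0.65 ± 1.05 for Pnlip, 0.62 ± 0.97 for Clps, 0.69 ± 1.02 for Cel and 0.53 ± 1.08 for Pnliprp1 (standard error, n = 2 per group). It was 0.47 ± 0.99 for Pnliprp2, 0.58 ± 0.89 for Pla2g1b, 0.21 ± 1.29 for Amy2b and 1.17 ± 0.76 for Amy2a5. The median of the 8 was 0.60, against 0.01 over all genes compared. Without transgenic 1 or without wild type 2 the difference was below 0 for 7 of the 8, at -0.38 and -0.50 for Pnlip, and above 0 for Amy2a5. Each omission leaves the library numbers uneven between genotypes, so these signs cannot be read apart from the gap between numbers. The standard errors above include the gap between library numbers, so differences of this size could hardly pass this test. With a further term for library number, which rests on the titles only, limma again called 0 genes. Voom with that term called 94 genes as higher in transgenic islets (0.739%) and 13 as lower. Of the 8 genes, 6 were called, all higher, and Pla2g1b and Amy2b were not.

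Within each library number, the transgenic library was the higher one for 8 of the 9 genes in both numbers, against 33.5% of all genes compared. Pnlip was 1.44-fold higher in number 1 (1.41 to 1.46) and 1.71-fold in number 2 (1.65 to 1.78). Cel was 1.54-fold higher (1.51 to 1.58) and 1.71-fold (1.63 to 1.80), and Clps 1.43-fold (1.39 to 1.48) and 1.66-fold (1.55 to 1.78). The folds of the other lipase genes lay between 1.25 (Pla2g1b, number 1) and 2.001 (Pla2g1b, number 2). Amy2b was 1.03-fold higher in number 1, where the interval includes no difference (0.984 to 1.08), and 1.32-fold in number 2 (1.16 to 1.499). Amy2a5, which shares many stretches with other amylase copies, had the widest ratio of the 9, 2.66-fold (2.41 to 2.94) in number 1 and 2.89-fold (2.37 to 3.55) in number 2. Amy1 was the exception, 1.47-fold higher (1.008 to 2.15) in number 1 and at 0.605 of wild type (0.359 to 0.994) in number 2. Each interval compares 2 single libraries by counting error and not the genotypes.

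**Figure D3:**
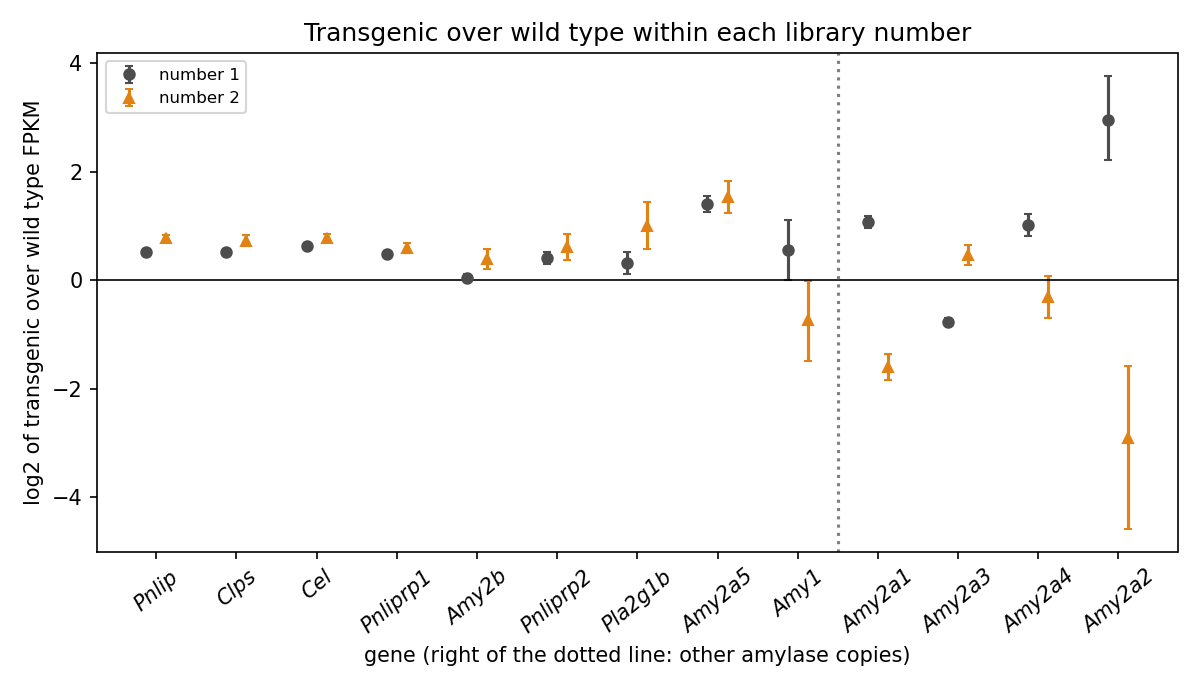
Log2 of transgenic over wild type FPKM within number 1 (circles) and number 2 (triangles) for the 9 genes and, right of the dotted line, 4 other amylase copies; bars are 95% exact counting intervals. Pnlip lies at 0.53 and 0.78, whereas Amy2a1 lies at 1.07 and -1.59.

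Summed over the 6 lipase and colipase genes, the level was 2081 and 508 FPKM in transgenic 1 and 2, against 1442 and 304 FPKM in wild type 1 and 2. The means, 1294 ± 1112 FPKM in transgenic and 873 ± 805 FPKM in wild-type islets (SD, n = 2 each), differed by less than either SD (exact permutation test, 2-sided p = 0.667). An exact test of 2 against 2 libraries cannot go below 0.333. Without transgenic 1, which leaves only number 2 in the transgenic group, the log2 difference of 0.57 became -0.78. The transgenic to wild-type ratio was 1.44 in number 1 and 1.67 in number 2. For the listed proteases, whose most abundant genes are named above, it was 1.30 and 1.66, and for the other acinar genes 1.41 and 1.48. It was 1.02 and 0.982 for the other lipases, and 0.700 and 0.948 for the summed islet hormone genes, whose part in the result was not tested. Ins2 was the largest part of that sum, at 89340 FPKM in transgenic 1 and 152363 FPKM in wild type 1. Ins1 lay at 38067 and 42407 FPKM in these libraries. The median log2 difference between genotypes over the 8 hormone genes was -0.07 in the limma fit. No gene of these lists passed the test between genotypes, and their medians were 0.52 for 14 proteases, 0.44 for 11 other acinar genes, -0.02 for 6 other lipases, 0.02 for 5 other phospholipases A2 and 0.03 for 5 other genes of starch and glycogen breakdown. Of the proteases 13 of 14, and of the other acinar genes 10 of 11, were higher in the transgenic library of both numbers, against 33.5% of all genes compared.

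Set against the proteases of the same library, the lipase sum was 33.3% and 29.9% of the protease FPKM in transgenic 1 and 2, and 29.9% and 29.6% in wild type 1 and 2. On the log2 scale this ratio was -1.66 ± 0.11 in transgenic and -1.75 ± 0.01 in wild-type islets (SD, n = 2 each, exact permutation p = 0.667). The amylase members were 5.16% and 3.82% of the lipase sum in transgenic 1 and 2, and 6.58% and 4.41% in wild type 1 and 2 (difference of -0.28 in log2, exact permutation p = 0.667). Against the proteases they were 1.72% and 1.14% in transgenic 1 and 2, and 1.97% and 1.30% in wild type 1 and 2 (difference of -0.20 in log2, exact permutation p = 0.667). With all 8 amylase copies of the table in the sum, amylase was 11.1% and 7.21% of the lipase sum in transgenic 1 and 2, and 12.5% and 16.1% in wild type 1 and 2. The log2 difference was then -0.66 against lipases and -0.58 against proteases (exact permutation p = 0.333 for each, the smallest that 2 against 2 libraries allow). For the 3 genes the share of amylase was larger in number 1 in both genotypes, and with all 8 copies it was larger in number 2 in wild-type islets.

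The amylase copies cannot all be read one by one, and they differ in how much sequence they share. The table lists 5 more, Amy2a1, Amy2a2, Amy2a3, Amy2a4 and the pseudogene Amy2-ps1. The annotated transcripts of Amy2a2, Amy2a3 and Amy2a4 are identical over all 3717 bases, and every 50-base and 100-base stretch of each occurs in another gene. The 890-base transcript of Amy2a1 differs from that of Amy2a5 at 1 position, and 94.9% of its 50-base stretches are shared. For Amy2a5 53.5% of 50-base stretches are shared with another gene, for Amy2b 40.2%, and for Amy1 33.3%, with 1.53% in another amylase gene. Of 100-base stretches, 44.3% are shared for Amy2a5, 11.4% for Amy2b and 30.8% for Amy1, with 0% in another amylase gene for Amy1. The sources used here do not say how reads with several matches were counted.

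The 3 identical copies carried very different numbers of reads. Amy2a3 held 2118 and 498 reads in transgenic 1 and 2, against 3343 and 444 in wild type 1 and 2. Amy2a4 held 637 and 93 reads in the transgenic libraries, against 291 and 142 in the wild-type ones. Amy2a2 held 142 and 5 reads in the transgenic libraries, against 17 and 46 in the wild-type ones. The split between copies thus differed from library to library, and in no common direction between genotypes.

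Amy2a1 held 2147 and 179 reads in transgenic 1 and 2, against 944 and 666 in wild type 1 and 2. It took 20.7% and 11.0% of all amylase reads in the transgenic libraries, and 11.1% and 34.0% in the wild-type ones. Amy2a5 took 14.8% (95% exact binomial interval 14.1 to 15.5) and 20.4% (18.5 to 22.4) in the transgenic libraries, and 6.27% (5.76 to 6.81) and 7.25% (6.14 to 8.49) in the wild-type ones. Amy2b took 35.8% and 30.6% in the transgenic libraries, and 39.2% and 23.9% in the wild-type ones. Amy2-ps1 had 1 read in each transgenic library and 0 of 8516 and 0 of 1959 amylase reads in wild type 1 and 2, which allows a share of up to 0.0352% and 0.153%. Among copies with more than 1 read in a library, only Amy2a5 had shares that did not overlap between genotypes. With 2 libraries a group, this was not tested further.

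**Figure D4:**
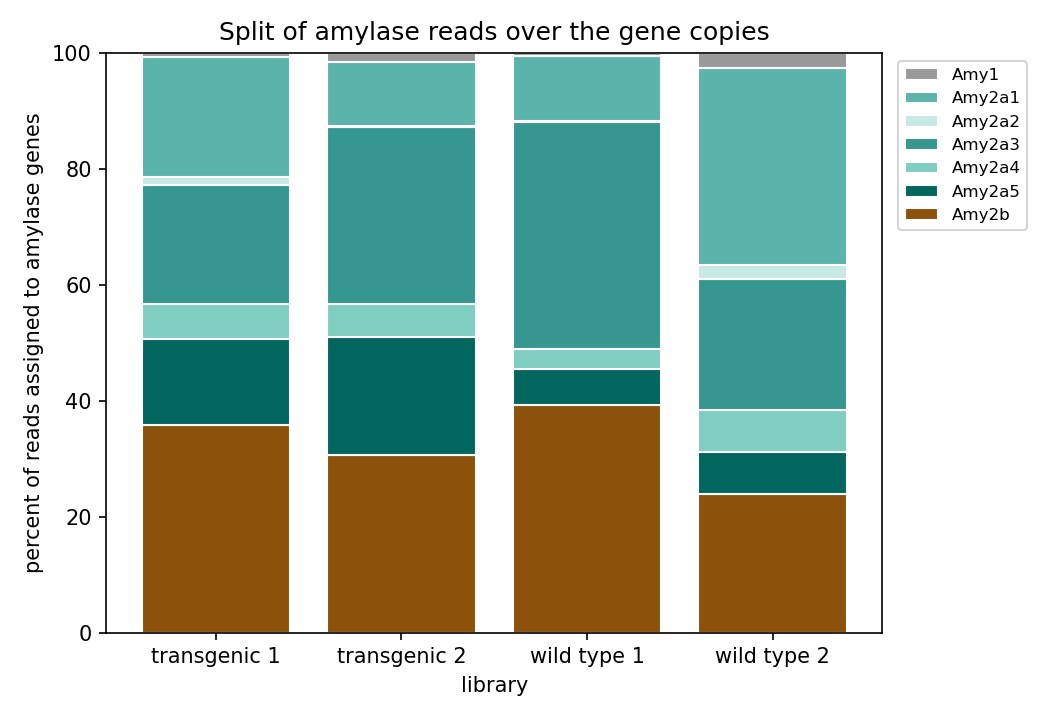
Stacked bars of the percent of all reads assigned to amylase genes that each copy holds, per library; Amy2-ps1, with at most 1 read, is not drawn. Amy2a5 takes 14.8% and 20.4% in transgenic libraries and 6.27% and 7.25% in wild-type ones, while Amy2a1 ranges from 11.0% to 34.0%.

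Summed over all 8 copies, amylase was at 231 and 36.7 FPKM in transgenic 1 and 2, against 181 and 48.8 FPKM in wild type 1 and 2. The transgenic library was thus higher in number 1 and lower in number 2. The 3 amylase members alone summed to 107 and 19.4 FPKM in the transgenic libraries, against 94.9 and 13.4 FPKM in the wild-type ones, higher in both numbers (63.3 ± 62.1 and 54.2 ± 57.6 FPKM, SD, n = 2 each, exact permutation p = 0.667). Counted as reads, without scaling by length, all 8 copies together had 438 and 75.4 RPM (reads scaled to all reads in genes) in transgenic 1 and 2, against 359 and 72.3 RPM in wild type 1 and 2, an alternative chosen after seeing the data. The direction of amylase between genotypes in number 2 therefore depends on the copies summed and on scaling by length. Over the same libraries the 6 lipase genes, which share no 50-base stretch with another gene, were all higher in the transgenic library of each number.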

How the data were processed

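RNA of isolated islets was sequenced in 4 libraries, 2 transgenic and 2 wild type, grouped by the labels. Libraries were built with Illumina's TruSeq kit from 1 ug of RNA, per the labels' protocols. HTSeq 0.6.0 and GRCm38 are named, with no role, per the submitters' processing notes. The sources used here give no aligner, strand setting or handling of reads with several matches. The authors deposited FPKM with a length for each gene. FPKM times length was a whole multiple of 1 step per library for 100% of values above 0 (within 0.001 of a read), and these multiples were taken as reads. A step was not exactly the inverse of the reads in genes, so the FPKM carry a further factor per library that no source names. A count of 0 allows 3 reads, or 0.116 to 0.143 FPKM for a gene of 1 kilobase. Intervals are at 95%, exact, and cover counting error only.

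Genes that reached 1 FPKM in 2 or more libraries entered limma 3.58.1 (R 4.3.3), with log2(FPKM + 1) as the value and a trended eBayes step, 2-sided, with Benjamini-Hochberg adjustment over all 12716 genes and a threshold of 0.05. A pseudocount of 1 understates differences of low genes. The fit had genotype as its only term, and a second fit had library number. Sums and ratios were compared by exact permutation in scipy 1.17.1. Alternatives were a pseudocount of 0.1, other filters, rescaling without Ins1, Ins2 and Iapp, voom on the recovered reads with trimmed-mean scaling, library number as a block with and without a curve on GC content (lowess, span 0.3), and each library left out. Shared stretches of 50 and 100 bases were counted in GENCODE transcripts on GRCm38, whichever strand they lie on.

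All 9 genes and all other amylase copies are named, with at most 4 genes of each other list, those with the highest mean FPKM, and the 5 genes most like Pnlip and Amy2a5. The genes and lists were chosen with earlier results of these data known. Coordinates are those of the deposited table unless credited to RefSeq.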

Additional observations from a re-analysis of the deposited data

Results flagged for a closer look

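For 5 amylase copies the transgenic library was above the wild-type one in one library number and below it in the other, and this difference between numbers was not tested. The log2 of transgenic over wild type FPKM was 1.07 in number 1 and -1.59 in number 2 for Amy2a1, and 2.95 and -2.90 for Amy2a2. It was -0.77 and 0.47 for Amy2a3, 1.02 and -0.31 for Amy2a4, and 0.55 and -0.73 for Amy1. Amy2a2, Amy2a3 and Amy2a4 have identical annotated transcripts, and the part of read sharing in these values was not tested.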

How the results depend on the processing

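Between genotypes limma called 0 genes, and voom on the recovered reads without a block also called 0, with 31 at an unadjusted p under 0.05. Library number as a block rests on a shared number in the titles only, and with 1 residual degree of freedom per gene. Deviations of same-numbered libraries from their group means correlated at 0.775 over 12716 genes, a value that 2 libraries per group make equal for both numbers. With this replicate block limma called 0 genes and voom 107 (94 higher, 13 lower), 6 of them among the 8 genes compared, all higher in transgenic islets (0.739% of all genes were). With the GC curve removed as well these were 66 (53 and 13; 0.417% higher) and 6. Pla2g1b and Amy2b were not called in either (voom adjusted p of 0.190 to 0.590), and Amy2a5, called in both, may share reads with other copies. The mean of the differences within each number kept the direction of the lipase and amylase sums. For the ratios it equals the main difference by construction and is no further check.

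Between numbers the count of 2630 genes was 274 with no filter on low values, where 1 of the 9 was called, and 835 to 1822 with a library left out, with 3 to 8 of the 8 called. A pseudocount of 0.1, a filter at 5 FPKM, voom without a block and rescaling without Ins1, Ins2 and Iapp kept both counts within 1.5 times, and kept 0 calls between genotypes. With all 8 amylase copies, by FPKM or by reads, the ratios of amylase kept their sign (-0.46 to -0.66). Without transgenic 1 the calls of Pnlip, Cel, Clps and Pla2g1b ended (limma adjusted p of 0.0566 to 0.0759).

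With a library left out, the 2 sums and 2 of the 3 ratios changed sign, as log2 differences: -0.78 to 2.09 for the lipase sum, -1.48 to 2.24 for the amylase sum, -0.57 to 0.0097 for amylase to lipase and -0.49 to 0.10 for amylase to protease. Without transgenic 1 or without wild type 2 the genotype differences of 7 of the 8 genes compared reversed, and without either of the other 2 libraries none did. Any library left out makes the library numbers uneven between genotypes. The values with a library left out therefore also carry the gap between numbers. The log2 difference ranged from -0.50 to 1.80 for Pnlip, -0.62 to 1.68 for Pnliprp1, -0.60 to 1.55 for Pnliprp2, -0.40 to 1.79 for Cel, -0.44 to 1.68 for Clps, -0.48 to 1.63 for Pla2g1b, -1.22 to 1.63 for Amy2b and 0.33 to 2.01 for Amy2a5.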
